A study of Mus musculus with 4 samples.

Results

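The spiral ligament and spiral limbus of the cochlea are built by fibrocytes, connective tissue cells that arise from the periotic mesenchyme around the otic epithelium. Fibrocytes secrete the matrix that anchors the sensory epithelium and take part in returning potassium from the epithelium to the endolymph. The 10 genes described here are known for this lineage. They comprise secreted proteins of otic fibrocytes (*Otos*, *Otor* and *Coch*), transcription factors of the otic mesenchyme (*Pou3f4*, *Tbx18* and *Twist1*), matrix proteins of connective tissue (*Dcn*, *Lum* and *Postn*) and the enzyme *Car3*, which marks a class of fibrocytes. Members were found by symbol, and all 10 were among the 23997 genes of the deposited table. The genes were picked with the values of this contrast already known, so their levels and differences are a description and not a test.

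The levels were measured by RNA-Seq in progenitors, EGFP+ cells sorted from the cochleae of P3 mice labelled as C57BL/6. Progenitors called Lgr5+ came from Lgr5-EGFP-IRES-CreERT2 mice and those called Lgr6+ from Lgr6-EGFP-IRES-CreERT2 mice, so the reporter allele and the mouse line differ between the populations, and both lines carry a CreERT2 cassette. The labels list 2 libraries for each population, 4 in all, whereas the methods describe 3 fractions per population, all taken from 1 RNA extraction. The table holds 1 value per gene and population, in FPKM, a fragment count scaled by transcript length and by the number of fragments mapped, in which the libraries are already combined. There is therefore no spread between replicates, no value below carries an error, and no test between the populations was made.

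The cells were sorted from dissected sensory epithelium, and the supporting cell markers *Sox2* and *S100a1* had FPKM values of 139.6 and 2959 in Lgr5+ cells and 54.8 and 3177 in Lgr6+ cells. Of the genes used for sorting, *Lgr6* was 2.06 in Lgr5+ cells and 2.90 in Lgr6+ cells, and *Lgr5* was 9.65 and 24.99. The study describes Lgr6+ cells as a subset of the cells that express *Lgr5*. FPKM summed over all genes was 754163 in Lgr5+ cells and 627932 in Lgr6+ cells. A gene was kept when its FPKM was at least 1 in at least 1 population, which held for 13436 genes and for all 10 members. The log2 change of a gene subtracts its log2(FPKM + 1) in Lgr5+ cells from that in Lgr6+ cells, and for low genes the added 1 makes it smaller than the ratio of FPKM. Genes at least 1.5-fold apart on this scale are counted as higher or lower. A gene below 1 in one population passed the filter only through the population where it is higher, so counts over lists are also given for genes that reach 1 in both. Of the 11177 genes that do so, 21.4% were higher and 22.5% lower in Lgr6+ cells, with a median log2 change of -0.029. A value listed at 0 can be a failed estimate, so no ratio is given against it.

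The promoters of 3 genes are shown because their genes, which encode the secreted fibrocyte proteins, were all at least 1.5-fold higher in Lgr6+ cells. Each runs from 250 bases before to 50 bases after the gene's start, from RefSeq on GRCm38.p6, in the direction of transcription, and capitals mark the E-box CANNTG, the core bound by *Twist1* and other bHLH factors, which reads the same on both strands.
Otos, chr1:92648792-92649091, minus strand: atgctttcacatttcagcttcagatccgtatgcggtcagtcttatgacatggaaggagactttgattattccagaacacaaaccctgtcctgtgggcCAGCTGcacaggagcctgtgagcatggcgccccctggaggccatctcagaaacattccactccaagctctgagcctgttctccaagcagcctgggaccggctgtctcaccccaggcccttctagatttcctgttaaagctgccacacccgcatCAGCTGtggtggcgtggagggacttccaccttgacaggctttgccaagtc
Otor, chr2:143078143-143078442, plus strand: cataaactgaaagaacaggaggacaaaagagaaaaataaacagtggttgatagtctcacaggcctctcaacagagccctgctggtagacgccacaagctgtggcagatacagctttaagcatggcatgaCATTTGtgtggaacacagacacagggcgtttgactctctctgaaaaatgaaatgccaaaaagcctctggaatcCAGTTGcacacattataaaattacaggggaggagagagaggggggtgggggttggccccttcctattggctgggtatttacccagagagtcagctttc
Coch, chr12:51593091-51593390, plus strand: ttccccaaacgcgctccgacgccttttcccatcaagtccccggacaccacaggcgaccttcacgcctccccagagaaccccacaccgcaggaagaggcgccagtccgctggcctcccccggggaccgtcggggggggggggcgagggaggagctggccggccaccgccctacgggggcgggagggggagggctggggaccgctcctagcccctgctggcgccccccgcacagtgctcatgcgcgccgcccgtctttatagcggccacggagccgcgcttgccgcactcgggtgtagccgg

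The *Otos* promoter held 2 E-boxes, which start 153 bases before the gene's start and at its first base, and the *Otor* promoter held 2, which start 121 and 48 bases before the start used for its promoter. That start differs from the one in the deposited data, 143078492, and the *Otor* window ends before it, at 143078442. The *Coch* promoter held none. It was also the richest in G and C of the 3, at 73.7%, against 55.0% for *Otos* and 47.3% for *Otor* and a median of 52.7% over 32851 promoters. It held 32 CpG dinucleotides, against 6 and 2 and a median of 7. Promoters were found for 7 of the 10 genes, 8 sequences in all, and *Car3*, *Dcn* and *Lum* had no entry. An E-box was present in 3 of these 8, the other being that of *Tbx18*, and in 72.3% of all promoters. The octamer ATGCAAAT of POU factors and the T-box core GGTGTGA, each searched on both strands, were in none of the 8 and in 1.74% and 3.98% of all promoters. These are matches of letters and say nothing of binding.

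The 10 genes did not move as a group. On the log2(FPKM + 1) scale 6 were at least 1.5-fold higher in Lgr6+ cells (*Otos*, *Otor*, *Coch*, *Car3*, *Twist1* and *Tbx18*), 1 was lower (*Lum*), and 3 were less than 1.5-fold apart (*Postn*, *Pou3f4* and *Dcn*). Of all kept genes 28.5% were higher and 23.3% were lower by the same rule, and since the genes were picked on this contrast nothing is read from the comparison. At 2-fold 5 of the 10 were higher and none was lower, beside 18.2% and 11.7% of all kept genes. Their median log2 change was 0.99, beside 0.035 over all kept genes, and the changes ran from -0.82 for *Lum* to 5.24 for *Otos*. With an FPKM sum made equal in both populations the median over all kept genes was 0.30 and that of the 10 genes 1.27, and the share of higher genes among those 1.5-fold apart was 69.7% in place of 55.0%. As a share of the summed FPKM, the 10 genes came to 0.0624% in Lgr5+ cells and 0.235% in Lgr6+ cells. Without *Otor* these shares were 0.0432% and 0.0896%.

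**Figure D1:**
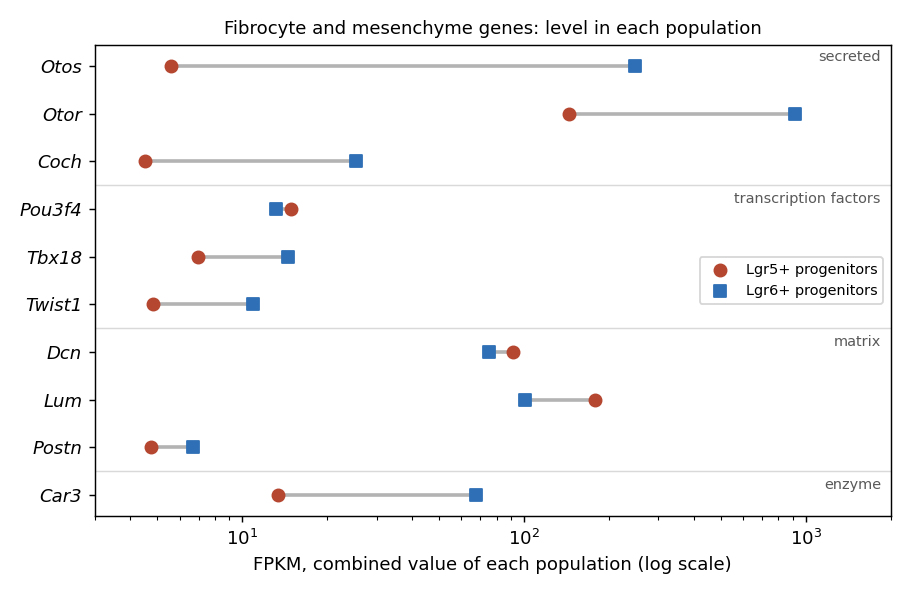
FPKM of the 10 genes on a log axis, with a circle for Lgr5+ cells, a square for Lgr6+ cells and a line between them. Each point is the combined value of a population, without an error. *Otos*, *Otor*, *Coch* and *Car3* span the widest lines, all toward Lgr6+ cells, while *Lum*, *Dcn* and *Pou3f4* have the circle on the right.

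*Otos* encodes otospiralin, a small protein secreted by fibrocytes of the ligament and limbus and needed for hearing. It lies on chromosome 1 from 92644218 to 92648841. Its FPKM was 5.60 in Lgr5+ cells and 248.5 in Lgr6+ cells, a ratio of 44.4 and a log2 change of 5.24. The change ranked 9th from the top among the 13436 kept genes, and the level ranked 412th in Lgr6+ cells and 8370th in Lgr5+ cells. The gene thus went from 7th of the 10 in Lgr5+ cells to 2nd in Lgr6+ cells.

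*Otor* encodes otoraplin, a secreted protein with an SH3-like fold of the MIA family, made in the cochlea and the eye. It lies on chromosome 2 from 143078492 to 143081699. Its FPKM was 144.8 in Lgr5+ cells and 914 in Lgr6+ cells, a ratio of 6.31 and a log2 change of 2.65. By FPKM, which is scaled by transcript length, it was the highest of the 10 genes in Lgr6+ cells, and only *Lum* was above it in Lgr5+ cells. It ranked 119th of all genes in Lgr6+ cells and 780th in Lgr5+ cells.

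*Coch* encodes cochlin, the most abundant non-collagen protein of the fibrocyte matrix, in which mutations cause deafness with loss of balance. It lies on chromosome 12 from 51593341 to 51605773. Its FPKM was 4.53 in Lgr5+ cells, the lowest of the 10 genes there, and 25.3 in Lgr6+ cells, a ratio of 5.59 and a log2 change of 2.25. *Coch* and *Otor* therefore stood in nearly the same proportion in both populations, *Otor* being 31.99 times *Coch* in Lgr5+ cells and 36.1 times in Lgr6+ cells. *Otor* against *Otos* did not keep its proportion, with 25.9 times in Lgr5+ cells and 3.68 times in Lgr6+ cells.

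*Car3* encodes carbonic anhydrase III, a cytosolic enzyme of fibrocytes, muscle and fat. It lies on chromosome 3 from 14863538 to 14872373. Its FPKM was 13.4 in Lgr5+ cells and 67.8 in Lgr6+ cells, a ratio of 5.05 and a log2 change of 2.25. The ranks of its change and of that of *Coch*, 440 and 443 from the top, were close to each other, although its level was higher in both populations.

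**Figure D2:**
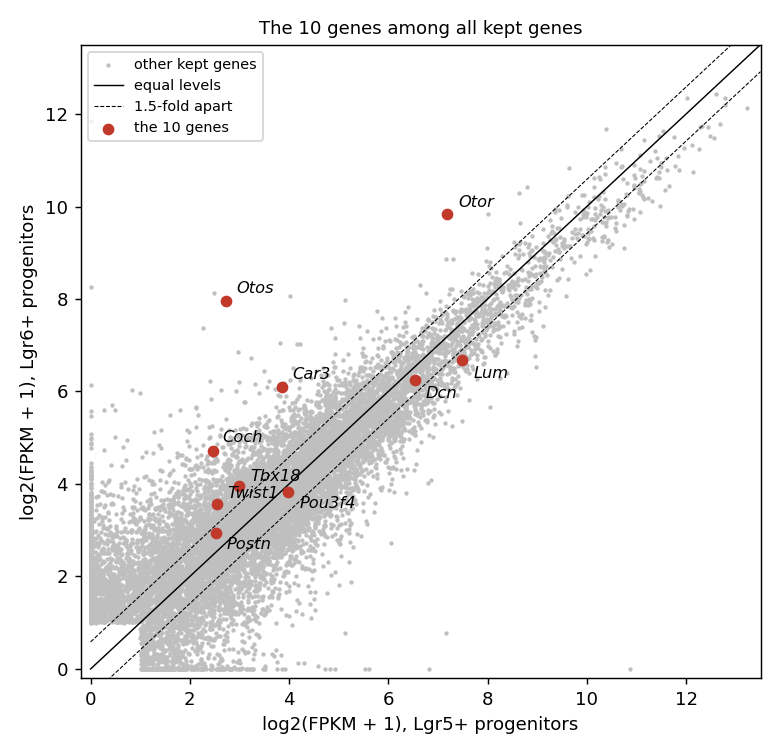
log2(FPKM + 1) of every kept gene in Lgr5+ cells (x axis) and Lgr6+ cells (y axis), with the 10 genes in red, a line of equal levels and dashed lines 1.5-fold apart. *Otos* and *Otor* lie at the upper edge of the cloud, at changes of 5.24 and 2.65, whereas *Postn*, *Pou3f4* and *Dcn* lie between the dashed lines.

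The transcription factors differed less than the secreted proteins. *Twist1*, a bHLH factor that maintains mesenchyme, lies on chromosome 12 from 33957671 to 33959831 and had an FPKM of 4.81 in Lgr5+ cells and 10.9 in Lgr6+ cells, a log2 change of 1.03. *Tbx18*, a T-box factor required for otic fibrocytes to form, lies on chromosome 9 from 87702800 to 87731260 and had 6.99 and 14.5, a log2 change of 0.95. Both were higher in Lgr6+ cells by about the same factor, the ratios of FPKM being 2.27 and 2.07.

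*Pou3f4*, a POU factor of the otic mesenchyme whose loss causes X-linked deafness, lies on chromosome X from 110814465 to 110815550. Its FPKM was 14.9 in Lgr5+ cells and 13.2 in Lgr6+ cells, a log2 change of -0.16, which turned to 0.093 with equal FPKM sums. *Pou3f4* was thus the highest of the transcription factors in Lgr5+ cells, but in Lgr6+ cells *Tbx18* was 1.10 times *Pou3f4*.

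The matrix proteins were the part of the 10 genes without a higher level in Lgr6+ cells by the 1.5-fold rule. *Lum* encodes lumican, a small leucine-rich proteoglycan that sets the spacing of collagen fibrils, and lies on chromosome 10 from 97565501 to 97572703. Its FPKM was 179.0 in Lgr5+ cells and 101.0 in Lgr6+ cells, a ratio of 1.77 and a log2 change of -0.82, which was -0.56 and under 1.5-fold with equal FPKM sums. *Lum* was the highest of the 10 genes in Lgr5+ cells and 3rd in Lgr6+ cells, where *Otor* was 9.05 times *Lum* and *Otos* 2.46 times.

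*Dcn* encodes decorin, a proteoglycan of the same family that binds collagen and TGF-beta, and lies on chromosome 10 from 97479500 to 97518162, next to *Lum*. Its FPKM was 91.8 in Lgr5+ cells and 74.9 in Lgr6+ cells, a log2 change of -0.29. *Postn* encodes periostin, a matrix protein with fasciclin domains made by fibroblasts, and lies on chromosome 3 from 54361107 to 54391041. Its FPKM was 4.74 in Lgr5+ cells and 6.69 in Lgr6+ cells, a log2 change of 0.42, and it was the lowest of the 10 genes in Lgr6+ cells.

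Without counts in the table, the depth behind a value has to be read from its size. Fragments come in whole numbers, so low values can lie at steps. Over 3752 genes with 1 annotated transcript of more than 1500 bases, FPKM times transcript length in kb, less 0.2 kb, piled up at 0.129 in Lgr5+ cells, with 58 values against 5 beside the step, and at 0.0404 in Lgr6+ cells, with 25 against 3. Each step was chosen as the place where values most outnumber those beside it. The contrast is therefore built in and cannot show that a step is 1 fragment, which was not tested. If a step is 1 fragment, 0.129 and 0.0404 stand for 7761534 and 24770216 fragments in the combined values. The paper gives a range of reads and of mapped shares per sample. With its reads counted as pairs, this range leads to more than 7761534 fragments for the combined Lgr5+ libraries. The reading of a step as 1 fragment may therefore not hold there. In these steps *Twist1* held 52.9 in Lgr5+ cells and 382.3 in Lgr6+ cells, *Car3* held 136.3 and 2194, and *Otor* held 841.9 and 16955. *Otos* held 21.9 and 3102 with its shorter annotated transcript of 704 bases, and 121.2 and 17173 with the longer of 2990 bases. The low value of *Otos* in Lgr5+ cells therefore rests on far fewer fragments than its value in Lgr6+ cells by this reading, and its size depends on the transcript counted.

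Under 5 other ways of setting the scale, 4 of the planned and the ratio without an added value, the changes of *Otos*, *Otor*, *Coch* and *Car3* stayed between 2.17 and 5.56, and those of *Tbx18* and *Twist1* between 0.88 and 1.32. *Postn* ran from 0.26 to 0.68, so that it passed 1.5-fold with equal FPKM sums. *Dcn* ran from -0.29 to -0.029.

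**Figure D3:**
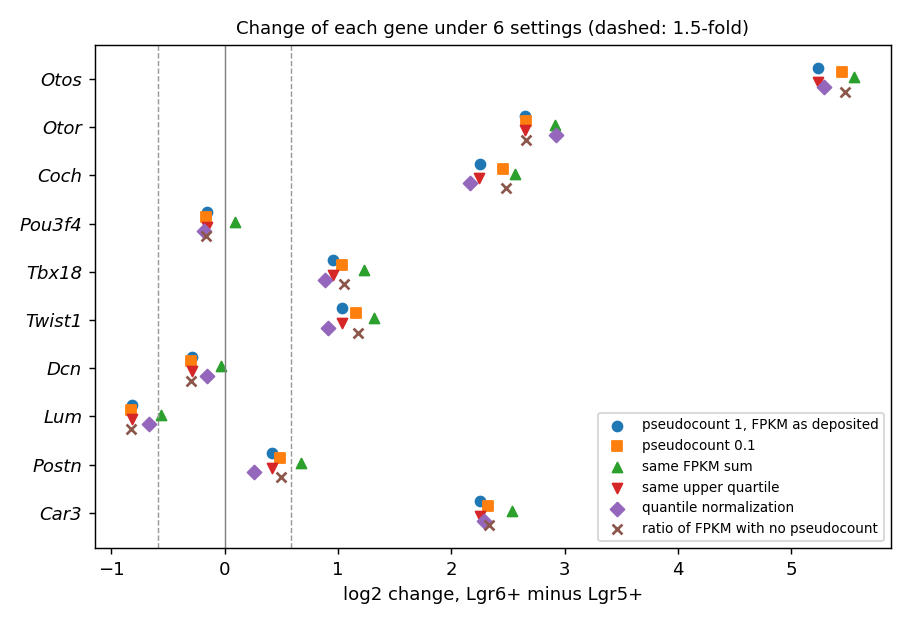
log2 change of each of the 10 genes, Lgr6+ minus Lgr5+, under 6 settings (one symbol each), with dashed lines at 1.5-fold. The symbols of a gene lie close together, and the settings change the side of a dashed line or of 0 for *Lum* (-0.56 with equal FPKM sums), *Postn* (0.68) and *Pou3f4* (0.093).

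The genes with levels most like those of *Otos* in both populations, by Euclidean distance in log2(FPKM + 1) over these 2 values, were *Igfbp7* at 0.29, *Fcrlb* at 0.75 and *Strip2* at 1.14. *Igfbp7*, a secreted protein that binds insulin-like growth factors, had FPKM values of 4.59 and 277.3. For *Coch* the nearest were *Snx24* at 0.074, *Paox* at 0.10 and *Uros* at 0.16. The likeness rests on 2 values per gene and says nothing of shared function.

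Genes of the table within 200 kb of the 10 genes, a window chosen after seeing the data, numbered 31 without the members themselves. Of these 13 were kept, 3 were higher and 2 were lower in Lgr6+ cells, beside 28.5% higher and 23.3% lower over all kept genes. *Gpc1*, a glypican near *Otos*, had 120.6 and 44.3, and *Snrpb2* near *Otor* had 110.0 and 45.7, log2 changes of -1.43 and -1.25. *Hdac9*, a histone deacetylase gene and the only kept neighbour of *Twist1*, had 1.03 and 8.41, a log2 change of 2.21. Near *Coch* all 4 neighbours were kept and less than 1.5-fold apart. *Car2*, beside *Car3*, had 74.9 and 55.8, a log2 change of -0.42. *Epyc*, the epiphycan gene on the far side of *Lum* from *Dcn*, had 29.3 in Lgr5+ cells and 140.7 in Lgr6+ cells, a log2 change of 2.22, while *Kera* between *Lum* and *Epyc* was listed at 0 and at 0.137. The table gives *Epyc* the same interval as *Gm10754* (50.9 and 140.0), so reads of these overlapping genes may be divided between them. Thus the proteoglycan genes of one stretch of chromosome 10 differed in direction, *Lum* being lower and *Epyc* higher.

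The relatives of the 10 genes were mixed as well. These and the other family counts below stand beside 28.5% higher and 23.3% lower over all kept genes. Among all genes that reach 1 in both populations the shares were 21.4% and 22.5%. Of 14 small leucine-rich proteoglycans 11 were kept, 6 of them higher and 3 lower, *Lum* included, and the median log2 change was 0.68, which became 0.22 without the filter, 0.42 over the 8 genes that reach 1 in both populations and 0.23 after quantile normalization. Without *Dcn* and *Lum* the median was 0.96. *Ogn* and *Aspn*, both among the 6 higher, are given the same interval as *Omd* and *Ecm2*, so reads may be divided between these genes too. The highest changes were those of *Epyc* and *Optc* (listed at 0 and at 1.78) and the lowest those of *Prelp* (2.47 and listed at 0) and *Podn* (5.73 and 2.44). Of 16 carbonic anhydrases 9 were kept, 5 higher and 3 lower, and of the 6 that reach 1 in both populations 3 were higher and 2 lower. At the ends were *Car9* (0.219 and 14.8) and *Car7* (listed at 0 and at 6.14), the highest changes, and *Car15* (8.11 and 0.766) and *Car13* (7.08 and 3.46), the lowest. *Car3* was the highest of this family in Lgr6+ cells, and *Car2* in Lgr5+ cells. Of 4 MIA family genes 3 were kept. *Mia*, which names the family, had 4942 and 3357, a log2 change of -0.56, against 2.65 for *Otor*, and *Mia3* had 11.9 and 20.9.

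Of 17 T-box genes 4 were kept, 2 of them higher, *Tbx1* (2.46 and 8.20) and *Tbx18*, and none lower, with *Mga* and *Tbx2* at -0.48 and -0.40. Of 15 POU genes 9 were kept, 3 higher and 3 lower, from -0.97 for *Pou4f1* and -0.80 for *Pou3f3* to 0.72 for *Pou5f2* and 1.57 for *Pou3f1*, and *Pou3f4* lay between them. Of 4 genes with fasciclin domains 3 were kept. *Stab1* (0.0513 and 8.41) and *Tgfbi* (2.95 and 22.1) were higher, and *Postn* had the smallest change of the 3.

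**Figure D4:**
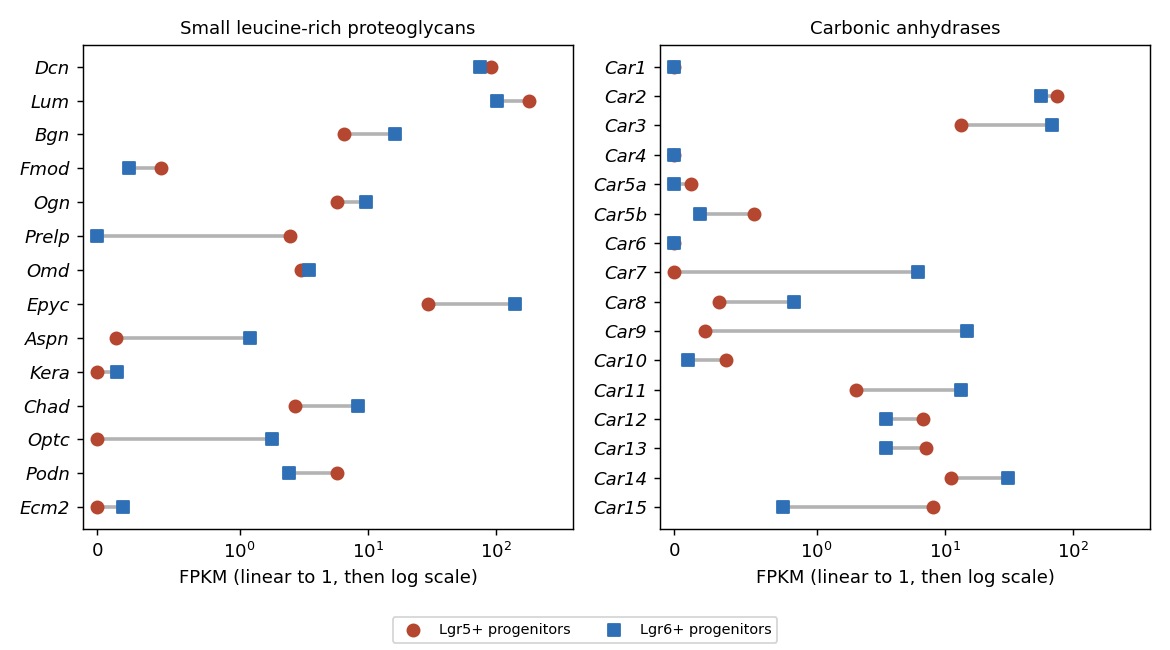
FPKM of 14 small leucine-rich proteoglycans (left) and 16 carbonic anhydrases (right), circles for Lgr5+ and squares for Lgr6+ cells, on an axis that is linear to 1 and logarithmic above. *Lum* and *Dcn* have the highest levels on the left in Lgr5+ cells, *Epyc* the highest in Lgr6+ cells, and *Car3* the highest square on the right.

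Other genes of this lineage were set beside the members. Their counts stand beside 28.5% higher and 23.3% lower over all kept genes, and 21.4% and 22.5% where both populations reach 1. Of 14 lateral wall fibrocyte and basal cell genes 13 were kept, 4 higher and 3 lower, with a median log2 change of -0.050, and of the 11 that reach 1 in both populations 2 were higher and 3 lower. *Cav1* (0.551 and 11.9) and *Nid2* (listed at 0 and at 5.30) were the highest, and *Ctgf* (93.7 and 20.7) and *Cdh11* (12.5 and 4.82) the lowest. Of 19 mesenchymal transcription factors 13 were kept, 9 higher and none lower at 1.5-fold. Without *Twist1*, *Tbx18* and *Pou3f4* 10 were kept and 7 were higher, but 6 of these 7 were below 1 in Lgr5+ cells and entered only through Lgr6+ cells. The 2 that reach 1 in both populations were *Foxc1* (4.96 and 11.8), which was higher, and *Zeb2* (2.76 and 1.62), at -0.52. *Prrx2* (0.410 and 47.3) and *Snai2* (0.0709 and 4.77) were at the top, and *Zeb2* and *Pou3f4* at the bottom.

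Of 25 fibroblast markers 21 were kept, 10 higher and none lower at 1.5-fold, with a median of 0.56, and of the 18 that reach 1 in both populations 7 were higher, with a median of 0.47. *Igfbp7* and *Serpinf1* (4.32 and 73.7) were at the top, and *Fbn1* and *Pdgfrb* at -0.51 and -0.47 at the bottom. In the same list *Col1a2* had 15.8 and 90.2 and *Sparc* 1078 and 854. Over these 4 lists together, without the 10 genes, 27 of 53 kept genes were higher and 5 were lower, and the median was 0.68. Where both populations had to reach an FPKM of 1, 14 of 37 were higher and 4 lower, and the median was 0.15. Over all genes that pass this filter 21.4% were higher and 22.5% lower, with a median of -0.029.

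**Figure D5:**
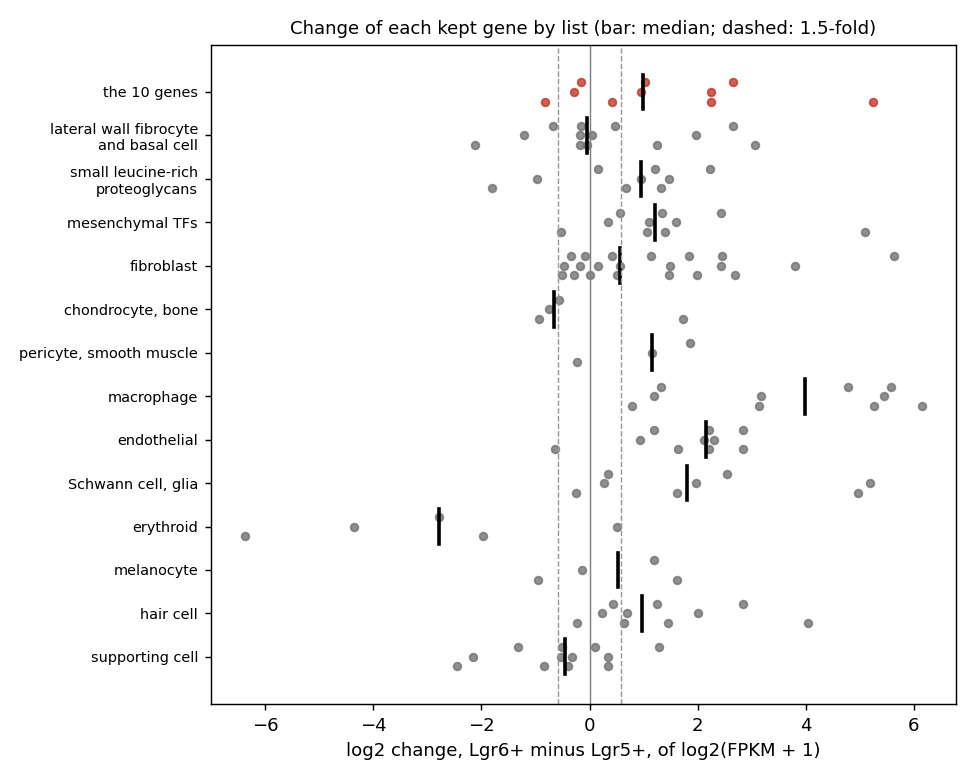
log2 change of every kept gene, Lgr6+ minus Lgr5+, for the 10 genes (red) and for lists of other genes without them (grey), with a black bar at each median and dashed lines at 1.5-fold. The median is 0.99 for the 10 genes, 3.98 for macrophage, 2.16 for endothelial and -2.78 for erythroid markers, and 1.06, 2.22 and -1.98 over the markers that reach an FPKM of 1 in both populations.

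Markers of cells other than epithelium moved with the population too. Beside their counts stand 28.5% higher and 23.3% lower over all kept genes, and 21.4% and 22.5% where both populations reach 1. Of 10 kept macrophage markers 8 were below 1 in Lgr5+ cells and entered only through Lgr6+ cells, and the 2 that reach 1 in both populations were higher in Lgr6+ cells, with a median of 1.06. The list had a summed FPKM of 24.7 in Lgr5+ cells and 308.7 in Lgr6+ cells. Of their 12 genes 6 were listed at 0 in Lgr5+ cells, among them *C1qb*, *C1qc*, *Tyrobp* and *Csf1r*, and none in Lgr6+ cells. Over all 23997 genes 9439 were listed at 0 in Lgr5+ cells and 8215 in Lgr6+ cells. Endothelial markers were higher for 9 of 10, and for 5 of the 5 that reach 1 in both populations, with sums of 34.5 and 178.6. Schwann cell and glial markers were higher for 5 of 8 kept, and for 3 of 6 that reach 1 in both, with sums of 605 and 1740. Pericyte and smooth muscle markers had sums of 7.38 and 15.6, with *Rgs5*, *Acta2*, *Cspg4*, *Kcnj8* and *Des* listed at 0 in Lgr5+ cells. *Acta2* was listed at 0 in Lgr6+ cells as well, and of the others only *Rgs5*, at 2.64, reached 1 there. Melanocyte markers had sums of 10.6 and 21.7, with 2 of 4 kept genes higher and 1 lower. *Tyrp1* and *Mlana* were listed at 0 in both populations, and *Dct* at 0 in Lgr5+ cells and at 0.681 in Lgr6+ cells.

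Erythroid markers went the other way, with 4 of 5 kept genes lower, 2 of 3 among those that reach 1 in both populations, and sums of 630 and 108. *Hba-a1* and *Hba-a2*, both among the 4 lower, are given the same interval, so reads may be divided between them. Chondrocyte and bone markers had 2 of 4 kept genes lower and 1 higher and sums of 2217 and 1306. Those sums lay mostly in *Col2a1* (1055 and 627), *Col9a2* (851 and 444) and *Col9a1* (302 and 203). The other 7 of the 11 genes in the list were below 1 in both populations and not kept. Hair cell markers were higher for 7 of 10, with sums of 1533 and 2480, and supporting cell markers for 1 of 12 and lower for 4, with sums of 3990 and 3618. All genes of these 2 lists reach 1 in both populations, a filter under which 21.4% of all genes were higher and 22.5% lower. The part of these cells in the levels of the 10 genes was not tested. In sorted bulk samples of this kind a difference in the number of cells that express a gene and a difference in RNA per cell cannot be told apart.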

How the data were processed

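FACS-isolated Lgr5+ and Lgr6+ cells were sequenced by the authors as paired-end SMART-Seq v4 libraries. The reads were trimmed with Trimmomatic, mapped with TopHat and quantified with Cufflinks on RefGene genes, with versions not given in the sources used here. The methods name mm9 and the submitters' processing notes mm10. Of 19493 genes, 99.1% of the intervals in the table overlapped the RefSeq gene in GRCm38 and 12.7% the gene in NCBIM37 (mm9), so positions are read as GRCm38. The deposited values are FPKM, 1 combined value per population. The table also holds the authors' log2 fold change, *p*-value and *q*-value of their own comparison, which were not used. The table gives no counts or depths of single libraries.

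From the FPKM values the log2 change with a pseudocount of 1 was calculated, a minimum FPKM of 1 in at least 1 population was applied, and 1.5-fold was the threshold. As there is 1 value per population, no test was run and no interval is given. Also tried were a pseudocount of 0.1, all genes without a filter, a minimum FPKM of 5, a minimum of 1 in both populations, equal FPKM sums, equal upper quartiles, quantile normalization and a 2-fold threshold. The ratio without a pseudocount was chosen after seeing the data. The 10 genes and the lists were chosen with earlier results of these data known. Named were the 10 genes, the 2 kept genes with the highest and the 2 with the lowest change in each related list, the 3 genes most like *Otos* and *Coch*, and examples of other cell type markers. *Sox2*, *S100a1*, *Col1a2*, *Sparc*, *Kera*, *Gm10754*, *Hdac9*, *Foxc1*, *Car2*, *Gpc1* and *Snrpb2* were named after their values were seen. So were *Col2a1*, *Col9a1*, *Col9a2*, *Ogn*, *Omd*, *Aspn*, *Ecm2*, *Hba-a1* and *Hba-a2*. Of the 8 erythroid symbols 7 were matched. Python 3.11.15, numpy 2.4.6, pandas 2.3.3 and matplotlib 3.10.9 were used, and the calculation was tested on simulated data.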

Additional observations from a re-analysis of the deposited data

How the results depend on the processing

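No paired analysis was possible because the table holds 1 combined value per population, and for the same reason leaving out each replicate was not run. Of the 10 genes, the 6 counted as higher in Lgr6+ cells numbered 5 at 2-fold, where *Tbx18* fell short, and 7 with equal FPKM sums, where *Postn* was added. The count of lower genes, 1 with the values as deposited, was 0 at 2-fold and 0 with equal FPKM sums. With equal FPKM sums *Pou3f4* turned from -0.16 to 0.093, a shift that follows from the lower FPKM sum of Lgr6+ cells. Among the 4 related lists without the 10 genes, the 27 higher genes became 17 at a minimum FPKM of 5 and 14 where both populations had to reach an FPKM of 1, settings under which 34 and 37 of the 53 genes were left. The share of higher genes over all genes was 24.1% and 21.4% under these settings. The 5 lower genes became 8 after quantile normalization and 3 at 2-fold, and the cause of the former was not tested. With 1 combined value per population, it cannot be said which of the differences exceed the spread between libraries.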
